A study of Mus musculus with 12 samples.

Results

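A set of 10 genes of TGF-beta signalling and extracellular matrix remodelling was followed across all 4 groups of an RNA-seq study of mouse heart cells. They were the 3 TGF-beta ligand genes *Tgfb1*, *Tgfb2* and *Tgfb3*, the non-collagen matrix genes *Postn* (periostin), *Fn1* (fibronectin), *Fbn1* (fibrillin-1) and *Sparc* (osteonectin), and the remodelling genes *Timp1*, *Lox* and *Mmp2*. The members are listed by name, with no threshold on a measured value, and they make up 10 of 22794 genes in the count table. All 10 passed the filter on low counts that left 14412 genes for testing.

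The RNA came from cardiomyocytes isolated from the hearts of wild-type C57BL6 mice 16 weeks after surgery. The NX JV101 group had a 5/6 nephrectomy, which removes most of the kidney mass, and was injected with JV101. The NX saline group had the same nephrectomy and saline, the sham JV101 group had sham surgery and JV101, and the sham saline group had sham surgery and saline. Each group held 3 libraries. What JV101 contains, its dose and schedule and the animals' sex and age are not given in the labels, although the series is titled as a telomere gene therapy for cardiac disease that follows chronic kidney disease. The labels number the libraries but do not say that each came from a separate animal, so the p-values measure the spread between these samples only.

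TGF-beta ligands are secreted in latent complexes that latent TGF-beta binding proteins anchor to fibrillin and fibronectin in the matrix. Once released, a ligand binds a pair of receptor kinases, which phosphorylate SMAD proteins, and the SMADs induce genes of matrix proteins and of their crosslinking and turnover. In the heart this pathway is best known for driving fibroblasts to lay down matrix after injury, and chronic kidney disease is a setting in which cardiac fibrosis is described. Most of the 10 genes are known mainly as products of fibroblasts and other non-myocyte cells, and a cardiomyocyte preparation can hold some of these cells.

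The libraries held between 26407125 and 33834238 counts, of which 36.7% to 69.0% fell on the 13 mitochondrially encoded genes. Cardiomyocyte markers were high throughout, with *Myh6*, the main adult mouse cardiac myosin, at 7252 to 22305 CPM (counts scaled to library size by TMM). The defining fibroblast markers were present too: *Dcn* (decorin) had 104 to 595 CPM, *Pdgfra* 8.93 to 51.5 CPM and *Tcf21* 1.02 to 8.20 CPM, and none was at 0 in any library. Over 17 fibroblast markers, none of them among the 10 genes, the summed level was 747, 1731 and 895 CPM in NX JV101 replicates 1 to 3, 696, 1038 and 1078 CPM in NX saline, 1647, 752 and 317 CPM in sham JV101, and 500, 755 and 920 CPM in sham saline. Sham JV101 replicates 1 and 3 thus lay near the top and at the bottom of this range. The 17 markers include the collagen genes *Col1a1*, *Col1a2* and *Col3a1*, so the sum also holds matrix genes. Because these are bulk samples, fewer cells of a type and less RNA per cell cannot be told apart.

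None of the 10 genes passed the test in any comparison. With edgeR's quasi-likelihood test and Benjamini-Hochberg adjustment over all genes tested, 0 of 10 members passed an adjusted p of 0.05 in each of 6 comparisons, where 0% of all genes passed. Without adjustment no member was under 0.05 in any of them either, where the share of all genes was 3.64% for NX saline against sham saline, 2.39% for NX JV101 against NX saline, 1.70% for sham JV101 against sham saline and 2.07% for NX JV101 against sham JV101. It was 4.36% for nephrectomy averaged over saline and JV101, and 1.78% for the interaction of nephrectomy and JV101. DESeq2 called no member, nor did limma on the FPKM. Of all genes, limma called 0, and DESeq2 1, 8, 0 and 0 in the 4 comparisons of pairs in that order, with 1 for the average and 0 for the interaction. The values that follow therefore describe levels and their spread, with no change called.

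Promoter sequences are shown for 4 of the members, as 250 bases before the annotated start on the coding strand, from RefSeq on GRCm38.p6, an older build than that of the counts. *Tgfb1* is the ligand with the highest level and *Tgfb2* the ligand whose level followed the others least. *Postn* (r = 0.82) and *Sparc* (r = 0.93) are among the matrix genes that moved with *Tgfb1* in log2 CPM. *Fbn1* (r = 0.85), whose promoter is not shown, did so too. Capitals mark a match on either strand to any of 5 motifs, which are the SMAD half-site GTCTG, the AP-1 motif TGANTCA, the TATA box TATAAA, the Sp1 box GGGCGG and the CCAAT box. None of these motifs overlaps another in the 4 sequences.
*Tgfb1*, chr7:25686752-25687001, plus strand: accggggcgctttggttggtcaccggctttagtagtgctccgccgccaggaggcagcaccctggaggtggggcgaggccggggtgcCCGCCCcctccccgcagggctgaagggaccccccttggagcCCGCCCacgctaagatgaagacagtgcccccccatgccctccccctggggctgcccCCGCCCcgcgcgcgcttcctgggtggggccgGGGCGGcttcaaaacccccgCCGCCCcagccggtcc
*Tgfb2*, chr1:186705990-186706239, minus strand: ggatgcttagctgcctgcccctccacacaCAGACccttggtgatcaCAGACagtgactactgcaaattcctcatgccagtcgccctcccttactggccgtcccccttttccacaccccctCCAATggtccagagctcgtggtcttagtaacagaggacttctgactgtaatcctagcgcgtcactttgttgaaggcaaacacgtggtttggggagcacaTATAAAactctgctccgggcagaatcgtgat
*Postn*, chr3:54360857-54361106, plus strand: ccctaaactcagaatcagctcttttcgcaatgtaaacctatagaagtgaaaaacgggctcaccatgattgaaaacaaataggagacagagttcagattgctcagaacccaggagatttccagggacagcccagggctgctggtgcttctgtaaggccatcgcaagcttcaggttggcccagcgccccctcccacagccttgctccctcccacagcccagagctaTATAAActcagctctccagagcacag
*Sparc*, chr11:55420081-55420330, minus strand: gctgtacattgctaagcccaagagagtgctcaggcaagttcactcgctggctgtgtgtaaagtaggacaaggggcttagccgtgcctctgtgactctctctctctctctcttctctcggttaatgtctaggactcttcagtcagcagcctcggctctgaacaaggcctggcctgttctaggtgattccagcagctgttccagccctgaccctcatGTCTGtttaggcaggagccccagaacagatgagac

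The *Tgfb1* promoter held GGGCGG 5 times and none of the other motifs. The *Tgfb2* promoter held TATAAA starting 31 bases before the start, CCAAT 130 bases before it and GTCTG 2 times, while the *Postn* promoter held TATAAA 26 bases before its start and the *Sparc* promoter GTCTG 35 bases before its own. RefSeq promoters were found for 6 of the 10 genes, with 2 starts for *Postn*, so 7 promoters in all. GTCTG occurred in 3 of these 7, against 42.2% of 32851 mouse promoters of the same length, TATAAA in 2 against 12.4%, GGGCGG in 3 against 32.7%, CCAAT in 2 against 33.8% and TGANTCA in 0 against 6.7%. The GTCTG of *Postn* lay 191 bases before its other start, which is not shown. The bases just after that start were not found in the transcripts searched. A match is a string of letters and not a known site.

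Per length, in the deposited FPKM, the levels of the 10 genes differed widely. *Sparc* was highest, at 82.2 ± 48.5 FPKM (SD, n = 12 libraries), above 97.1% of the genes tested. *Mmp2* followed at 12.05 ± 7.40, *Tgfb1* at 10.3 ± 4.63, *Fn1* at 7.79 ± 2.51, *Postn* at 6.90 ± 4.95 and *Fbn1* at 5.52 ± 3.15 FPKM. Lower levels were found for *Tgfb3* at 3.04 ± 1.42, *Timp1* at 1.98 ± 1.62, *Lox* at 0.835 ± 0.496 and *Tgfb2* at 0.609 ± 0.195 FPKM. Below *Sparc*, each pair of neighbours in this order differed by less than the SD of the higher gene of the pair. Among the ligands the order was therefore *Tgfb1*, *Tgfb3*, *Tgfb2*, and *Tgfb1* was above *Tgfb3* and *Tgfb3* above *Tgfb2* in each of the 12 libraries.

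*Tgfb1*, the ligand most studied in fibrosis, had 22.0, 33.9 and 20.6 CPM in NX JV101 replicates 1 to 3, 19.5, 20.3 and 35.4 CPM in NX saline, 33.0, 18.6 and 10.03 CPM in sham JV101, and 16.9, 15.4 and 17.7 CPM in sham saline. In CPM every NX saline library was above every sham saline library, although the lowest NX saline value exceeded the highest sham saline value by little. In the deposited FPKM these groups overlapped, at 8.57, 10.5 and 11.3 in NX saline and 9.21, 4.48 and 8.67 in sham saline. The log2 fold change, NX saline over sham saline, was 0.58 (SE 0.38, adjusted p = 0.994), with a 95% interval of -0.24 to 1.41. It was 0.28 when NX saline replicate 3 was left out and 0.73 when NX saline replicate 1 was. The sham JV101 libraries covered both a higher and a lower level than all sham saline libraries.

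*Tgfb2*, an isoform needed for heart valve and septum formation in the mouse embryo, had 6.78, 5.56 and 5.98 CPM in NX JV101 replicates 1 to 3, 5.36, 4.25 and 4.55 CPM in NX saline, 5.14, 4.97 and 3.35 CPM in sham JV101, and 4.50, 3.64 and 6.01 CPM in sham saline. The 3 NX JV101 libraries were above all NX saline and all sham JV101 libraries, but 1 sham saline library reached their range. The log2 fold change was 0.37 (SE 0.23, adjusted p = 1.00) for NX JV101 over NX saline and 0.44 (SE 0.23, adjusted p = 0.999) for NX JV101 over sham JV101. These comparisons share the NX JV101 libraries. For NX saline over sham saline it was -0.00 (SE 0.23), with an interval of -0.51 to 0.51, and the interaction was 0.45 (SE 0.33, adjusted p = 1.00). Leaving out sham JV101 replicate 3 gave 0.27 for NX JV101 over sham JV101, and leaving out sham saline replicate 3 gave 0.24 for the interaction. Of the 10 genes it varied least between libraries, by 2.02 times between the lowest and the highest.

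*Tgfb3*, an isoform named in inherited aneurysm and cardiomyopathy in people, had 8.55, 16.1 and 13.3 CPM in NX JV101 replicates 1 to 3, 8.37, 9.20 and 13.2 CPM in NX saline, 12.4, 7.68 and 4.67 CPM in sham JV101, and 8.32, 7.50 and 8.67 CPM in sham saline. All groups overlapped. Its log2 fold change was 0.62 (SE 0.33) for NX JV101 over sham JV101 and 0.32 (SE 0.33) for NX saline over sham saline, and 0.47 (SE 0.23, adjusted p = 0.860) for nephrectomy averaged over saline and JV101. For NX JV101 over sham JV101 it was 0.33 with sham JV101 replicate 3 left out and 1.05 with replicate 1 of that group left out, and for NX saline over sham saline 0.12 with NX saline replicate 3 left out.

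**Figure D1:**
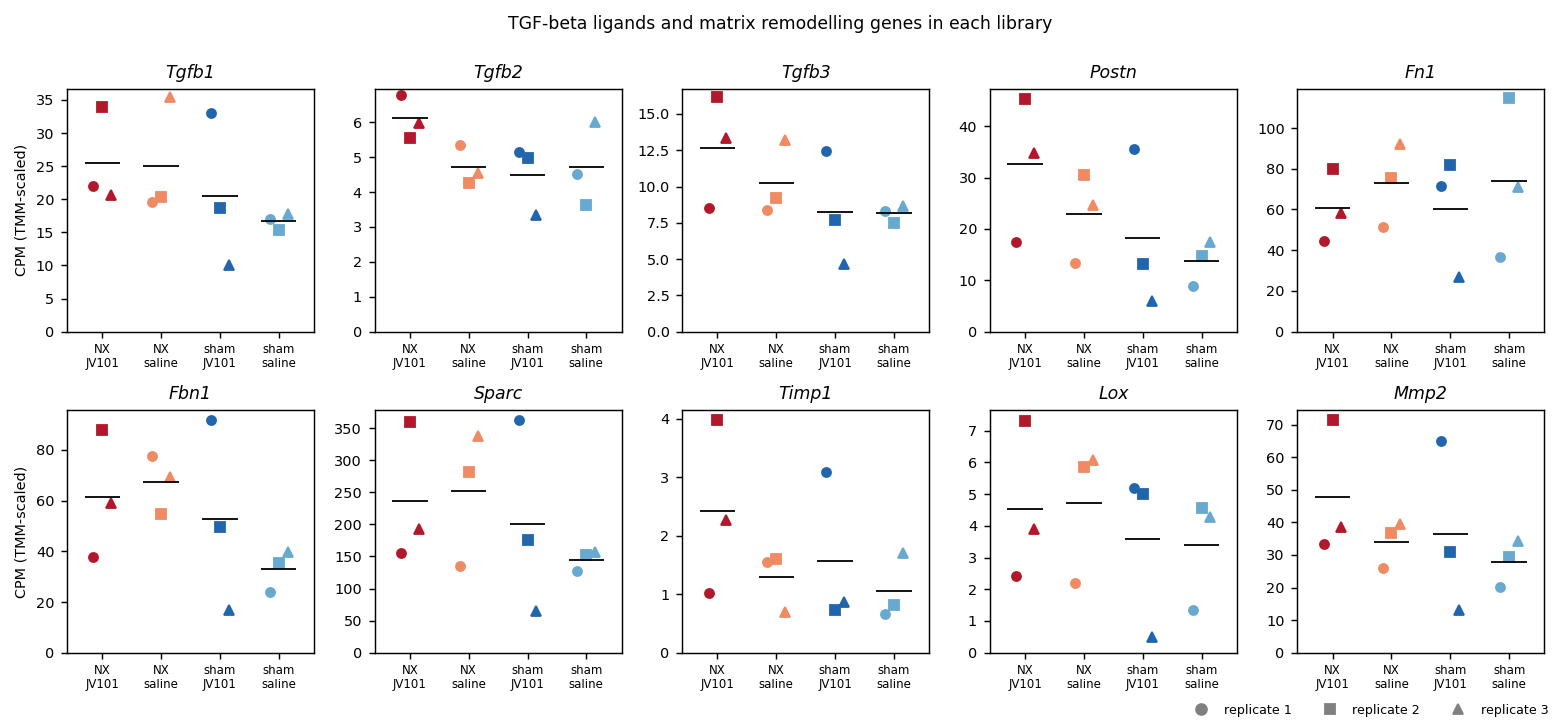
CPM (vertical axis, TMM-scaled, from 0) of the 10 genes in the 12 libraries, by group from NX JV101 to sham saline; each point is 1 library, its shape the replicate number, and the line the group mean. For *Sparc*, *Fbn1* and *Mmp2* the sham JV101 points are spread wider than those of any other group, as with 363, 176 and 64.9 CPM for *Sparc*.

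*Postn* encodes periostin, a matricellular protein that activated fibroblasts secrete and that binds collagen and fibronectin. It had 17.5, 45.3 and 34.9 CPM in NX JV101 replicates 1 to 3, 13.3, 30.6 and 24.8 CPM in NX saline, 35.6, 13.2 and 5.99 CPM in sham JV101, and 8.83, 14.8 and 17.5 CPM in sham saline. The group means followed in that order, from 32.6 ± 14.0 CPM in NX JV101 through 22.9 ± 8.80 in NX saline and 18.2 ± 15.4 in sham JV101 to 13.7 ± 4.43 CPM in sham saline (SD, n = 3 each), and neighbouring groups overlapped. For nephrectomy averaged over saline and JV101 the log2 fold change was 0.79 (SE 0.40, adjusted p = 0.860), the largest of the 10, and 1.26 when sham JV101 replicate 1 was left out.

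*Fbn1* encodes fibrillin-1, which builds the microfibrils that hold latent TGF-beta and which is mutated in Marfan syndrome. It had 37.7, 88.0 and 58.9 CPM in NX JV101 replicates 1 to 3, 77.5, 54.9 and 69.5 CPM in NX saline, 91.9, 49.5 and 16.8 CPM in sham JV101, and 24.1, 35.3 and 39.6 CPM in sham saline. All NX saline libraries were above all sham saline libraries, with a gap between 54.9 and 39.6 CPM. The log2 fold change, NX saline over sham saline, was 1.03 (SE 0.49, adjusted p = 0.994), the largest of any member in any of the 6 comparisons. In the JV101 pair, NX over sham, it was 0.22 (SE 0.48), and the interaction, which compares these differences, was -0.81 (SE 0.68, adjusted p = 1.00). Leaving out sham JV101 replicate 1 gave 0.90 for the JV101 pair and -0.13 for the interaction, and leaving out replicate 3 of that group gave -0.20 and -1.24.

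*Sparc*, a collagen-binding glycoprotein that takes part in collagen fibril assembly, had 156, 360 and 193 CPM in NX JV101 replicates 1 to 3, 135, 282 and 338 CPM in NX saline, 363, 176 and 64.9 CPM in sham JV101, and 127, 152 and 157 CPM in sham saline. NX saline replicate 1 lay within the range of the sham saline libraries, whose own values were close together. The log2 fold change, NX saline over sham saline, was 0.79 (SE 0.53, adjusted p = 0.994). *Fn1*, fibronectin, on which the latent complexes assemble, had 44.7, 79.8 and 58.3 CPM in NX JV101, 51.5, 75.7 and 92.0 CPM in NX saline, 71.5, 81.8 and 26.8 CPM in sham JV101, and 36.6, 115 and 71.2 CPM in sham saline. Its NX saline libraries all lay inside the sham saline range, and the log2 fold change was -0.02 (SE 0.45), with an interval of -1.01 to 0.96. It was -0.35 when sham saline replicate 1 was left out and 0.45 when sham saline replicate 2 was.

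Of the remodelling genes, *Mmp2* encodes gelatinase A, a metalloproteinase that degrades denatured collagen and basement membrane. It had 33.2, 71.5 and 38.7 CPM in NX JV101 replicates 1 to 3, 25.9, 36.7 and 39.5 CPM in NX saline, 65.0, 31.0 and 13.1 CPM in sham JV101, and 20.3, 29.5 and 34.2 CPM in sham saline. The groups overlapped, and the log2 fold change was 0.28 (SE 0.47) for NX saline over sham saline and 0.49 (SE 0.47) for NX JV101 over NX saline. These were 0.093 with sham saline replicate 1 left out and 0.084 with NX JV101 replicate 2 left out. *Lox*, lysyl oxidase, the enzyme that starts the crosslinking of collagen and elastin, had 2.42, 7.31 and 3.89 CPM in NX JV101, 2.19, 5.86 and 6.07 CPM in NX saline, 5.20, 5.02 and 0.509 CPM in sham JV101, and 1.33, 4.56 and 4.27 CPM in sham saline. It had the widest range of the 10, 14.3 times between libraries. *Timp1*, a secreted inhibitor of metalloproteinases, had 1.02, 3.98 and 2.27 CPM in NX JV101, 1.55, 1.61 and 0.704 CPM in NX saline, 3.09, 0.723 and 0.869 CPM in sham JV101, and 0.665, 0.808 and 1.70 CPM in sham saline. Its counts were the lowest, 13 to 169 per library, its log2 fold change for NX JV101 over NX saline was 0.90 (SE 0.65, adjusted p = 1.00), and the groups overlapped. It was 0.34 when NX JV101 replicate 2 was left out and 1.26 when NX JV101 replicate 1 was.

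**Figure D2:**
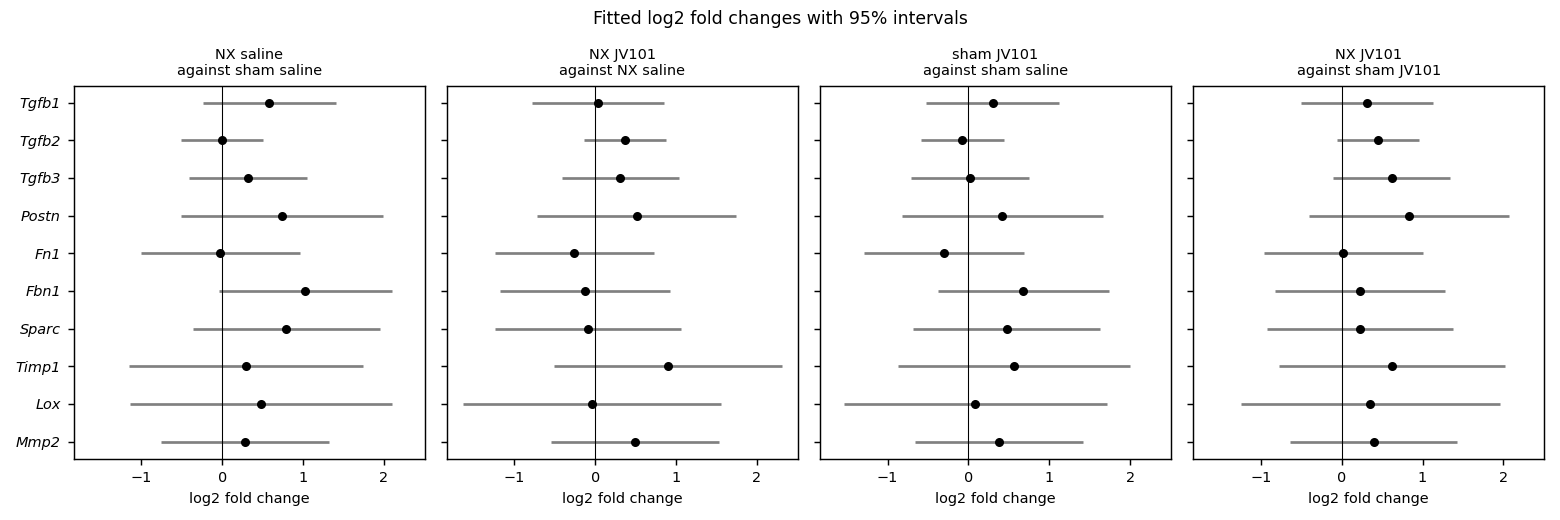
Log2 fold changes (horizontal axis) of the 10 genes fitted by edgeR in the 4 comparisons of pairs of groups, the first-named group over the second; points are estimates, lines 95% intervals, and the vertical line marks no difference. Every interval includes 0, and that of *Fbn1* in NX saline against sham saline comes nearest to leaving it (-0.04 to 2.09).

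As a list, the members were more often above than below their controls, without any passing. In NX saline against sham saline, 8 of 10 were higher, with a median log2 fold change of 0.40 beside 0.02 over all genes tested. The groups did not overlap in CPM for 2 of them, *Fbn1* and *Tgfb1*, both higher, though *Tgfb1* overlapped in FPKM. Of all genes, 4.90% were higher and 5.92% lower without overlap in that comparison. Leaving out sham saline replicate 1 gave a median of 0.21, and leaving out sham saline replicate 3 gave 0.67. In the NX pair, JV101 against saline, 6 were higher and the median was 0.17 beside 0.01, with 1 gene, *Tgfb2*, higher without overlap, where 4.52% of all genes were higher and 3.69% lower. Leaving out NX JV101 replicate 2 turned that median to -0.07, and it was 0.33 when NX saline replicate 3 was left out. The 4 lower members (*Fn1*, *Fbn1*, *Sparc* and *Lox*) were all above 0 on the FPKM scale, on which the median of all genes stood at 0.21.

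In sham JV101 against sham saline, 8 of 10 members were higher, with a median of 0.34 beside 0.03 over all genes. None was free of overlap, where 1.76% of all genes were higher and 2.07% lower without overlap. The median depended on single libraries: leaving out sham JV101 replicate 1 gave -0.33, and leaving out replicate 3 of that group gave 0.70. In NX JV101 against sham JV101 all 10 were higher, with a median of 0.37 beside 0.00, and *Tgfb2* alone did not overlap, against 2.69% of all genes higher and 2.42% lower. Here the median was -0.01 when sham JV101 replicate 3 was left out and 0.94 when replicate 1 of that group was. For nephrectomy averaged over saline and JV101 the median was 0.45 beside 0.01, with all 10 members above 0, *Fn1* only at 0.00 and below 0 with DESeq2 (-0.01), with RLE size factors (-0.01) and without the mitochondrially encoded genes (-0.02). It ranged from 0.27 without NX JV101 replicate 2 to 0.71 without sham JV101 replicate 1. The interaction had 6 of 10 above 0, a median of 0.07 beside -0.03, and a median from -0.32, when sham JV101 replicate 3 was left out, to 0.42, when its replicate 1 was. These comparisons share groups and are not independent of each other.

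The genes moved together from library to library. No other set of genes was set beside them, so this does not show a trait particular to the members. Over the 12 libraries all 45 pairwise Pearson correlations of log2 CPM were positive, from 0.06 (*Tgfb2* with *Fn1*) to 0.94 (*Postn* with *Mmp2*), with a median of 0.74, and the median was 0.76 for deviations from the group means. Sham JV101 replicate 3 was the lowest library for 9 of the 10 genes, the exception being *Timp1*, and NX JV101 replicate 2 was the highest for 5. In sham JV101 replicate 1 and NX JV101 replicate 2 all 10 genes were above their mean over the 12 libraries, and in sham saline replicate 1 and sham JV101 replicate 3 none was.

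**Figure D3:**
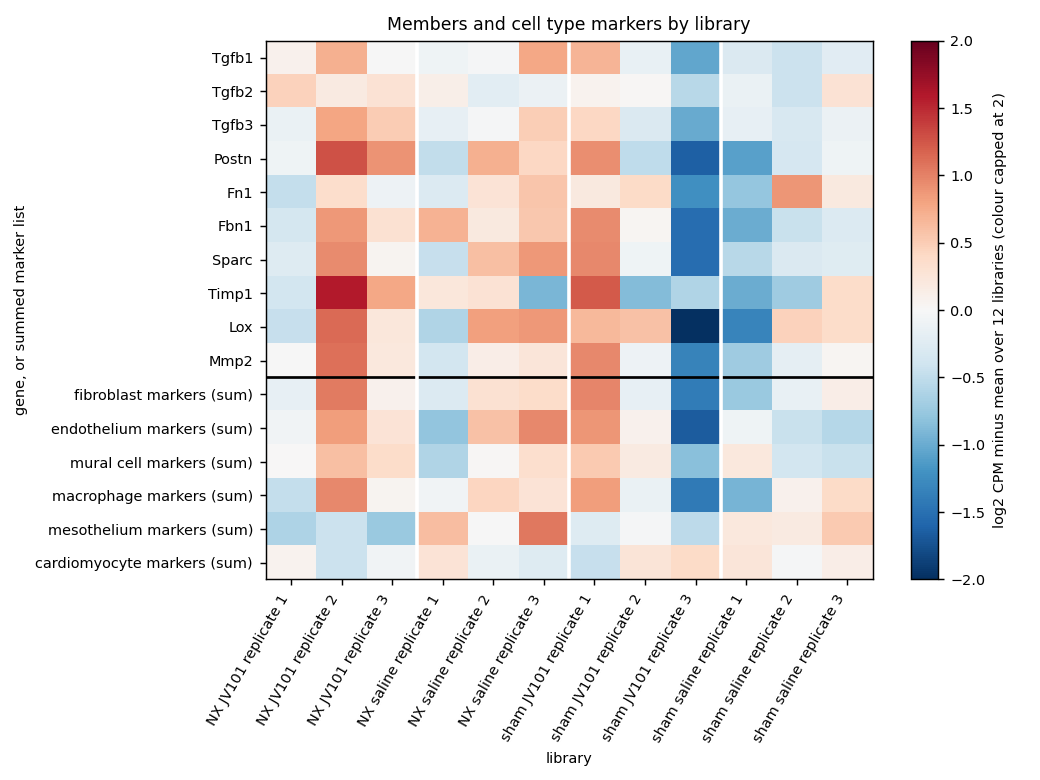
Log2 CPM minus the mean over the 12 libraries (colour, capped at 2 on either side) for the 10 genes above the black line and for summed cell type markers below it; columns are libraries, with white lines between groups. The column of sham JV101 replicate 3 is blue for all 10 genes and for the fibroblast, endothelium, mural and macrophage markers, and pale red for the cardiomyocyte markers.

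The levels of most members followed the fibroblast markers. The share of all genes that would do so was not computed, so the permutation p-values below do not set the members apart. *Mmp2* had the closest relation to the log2 sum of the 17 fibroblast markers, with Pearson's r = 0.989 and Spearman's rho = 0.951 over the 12 libraries (permutation p = 1e-05 for r, the smallest that 100000 permutations can give, and 3e-05 for rho; adjusted over 10 relations 3.33e-05 and 0.00015). Without the 2 libraries farthest from the median marker sum, sham JV101 replicate 3 and NX JV101 replicate 2, r was 0.972, and for deviations from the group means 0.999. Per 1000 CPM of fibroblast markers it stood at 35.4 to 44.5 CPM, a range of 1.26 times where its own CPM ranged 5.44 times. In this ratio NX JV101 had 44.5, 41.3 and 43.2 and NX saline 37.2, 35.4 and 36.7, so these 2 groups did not overlap. The ratio of *Fn1* did not overlap between them either, but was lower in NX JV101 (46.1 to 65.1) than in NX saline (72.9 to 85.4). The ratios of the other members overlapped. The log2 slope on the marker sum was 0.97 for *Mmp2* and 0.63 for *Fn1*, so the ratio of *Fn1* still varied with that sum. For this ratio the share of all genes without overlap was not computed.

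*Sparc* (r = 0.948, rho = 0.944), *Postn* (0.935 and 0.888) and *Lox* (0.892 and 0.916) came next, with adjusted permutation p of 3.33e-05, 3.33e-05 and 0.000125 for r and 0.00015, 0.0007 and 0.000367 for rho. *Tgfb1* (r = 0.885, rho = 0.727), *Fbn1* (0.877 and 0.734) and *Tgfb3* (0.874 and 0.811) had adjusted permutation p of 0.000483, 0.00036 and 0.000529 for r and 0.0139, 0.0139 and 0.0039 for rho. *Fn1* (r = 0.706, rho = 0.657, adjusted permutation p = 0.0119 and 0.0306) and *Timp1* (r = 0.704, rho = 0.580, adjusted permutation p = 0.011 and 0.0569, so that rho did not pass) followed more loosely, and the r of *Fn1* was 0.49 without the 2 outermost libraries. *Tgfb2* did not pass (r = 0.464, rho = 0.252, adjusted permutation p = 0.129 and 0.431), and its r was 0.05 without those 2 libraries. Without them r was between 0.65 and 0.89 for the 7 others beside *Mmp2*. Deviations from the group means gave r of 0.37 for *Tgfb2* and 0.68 to 0.95 for the 8 genes other than *Mmp2* and *Tgfb2*.

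**Figure D4:**
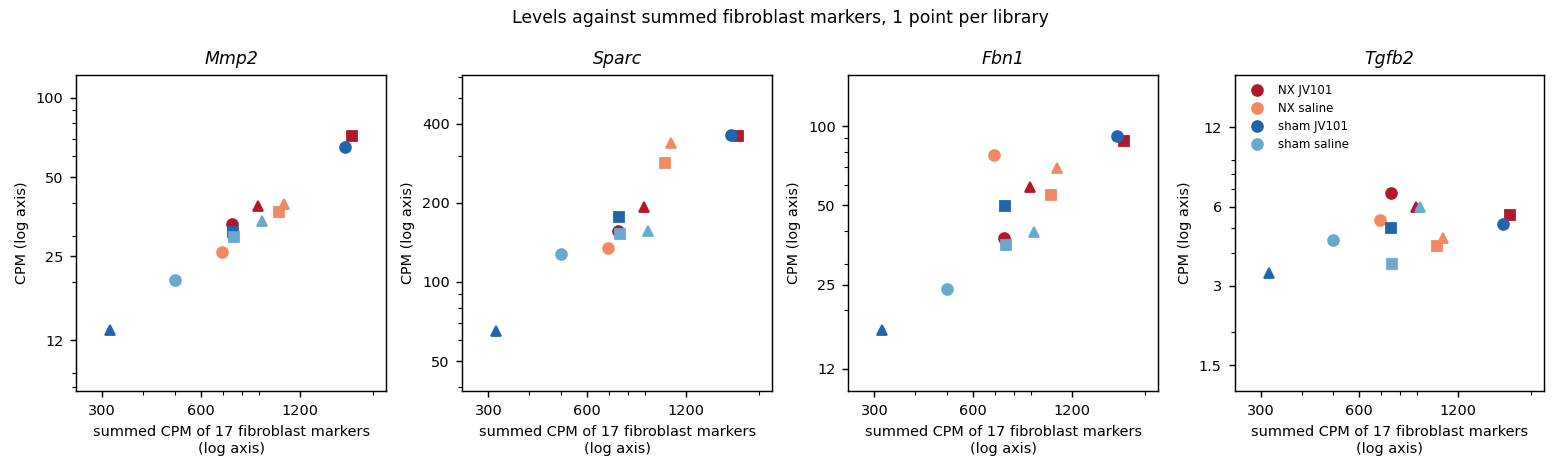
CPM of *Mmp2*, *Sparc*, *Fbn1* and *Tgfb2* (vertical axes, log scale) against the summed CPM of 17 fibroblast markers (horizontal axes, log scale), 1 point per library, coloured by group and shaped by replicate number as in the plot of CPM by group. *Mmp2* lies near a line from 13.1 to 71.5 CPM, the *Fbn1* point of NX saline replicate 1 (77.5 CPM) lies above those of libraries with similar marker sums, and *Tgfb2* shows little slope.

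The fibroblast list moved with the members in the comparisons. All 17 of its genes were higher in NX saline than in sham saline, at a median of 0.47 on the log2 scale and with 0 passing. All 17 were also higher in sham JV101 than in sham saline (median 0.37) and in NX JV101 than in sham JV101 (0.33), and 14 were higher in NX JV101 than in NX saline (0.25). The sums of the list did not separate the sham groups, however. They ran from 317 to 1647 CPM in sham JV101 (median 752) and from 500 to 920 CPM in sham saline (median 755). The part of the fibroblast list in the members' values was not tested. Set per 1000 CPM of fibroblast markers, *Fbn1* had 111, 52.9 and 64.5 CPM in NX saline replicates 1 to 3 and 48.1, 46.8 and 43.0 CPM in sham saline, so the groups still did not overlap. *Tgfb1* had 28.1, 19.6 and 32.8 in NX saline and 33.9, 20.3 and 19.3 in sham saline, which overlapped. *Postn* averaged 29.5 ± 8.31 in NX JV101, 23.8 ± 5.25 in NX saline, 19.3 ± 2.06 in sham JV101 and 18.7 ± 0.993 in sham saline (SD, n = 3 each). Each NX JV101 ratio of *Postn* was above each sham JV101 and sham saline ratio, while NX saline overlapped both. Between NX saline and sham saline, *Fbn1* was the only member whose ratio did not overlap. *Mmp2* overlapped by little, with NX saline up to 37.18 and sham saline from 37.16. The *Fbn1* ratios of sham JV101 (52.8 to 65.9) and NX JV101 (50.5 to 65.9) were also above all those of sham saline. A ratio is free of the marker sum only where the log2 slope on that sum is 1. The slope was 0.69 for *Tgfb1*, 0.98 for *Fbn1* and 1.22 for *Postn*. No test was made of these ratios, and the share of all genes without overlap was not computed for them.

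Endothelium, mural and macrophage markers were likewise lowest in sham JV101 replicate 3, as 9 of the 10 members were. The sums of these markers ran from 349 to 2145 CPM, from 370 to 995 CPM and from 114 to 593 CPM. Correlations of the members with a marker sum were computed for the fibroblast list only. They do not show a relation particular to fibroblasts. Endothelium markers were higher for 9 of 10 genes in NX saline against sham saline (median 0.60), mural markers for 8 of 9 (0.32) and macrophage markers for 9 of 10 (0.32), with 0 passing in each. The sums overlapped between these groups. In NX saline and sham saline they were 638 to 2145 and 745 to 1039 CPM for endothelium. For mural cells they were 433 to 828.5 and 484 to 761 CPM, and for macrophages 291 to 408 and 159 to 397 CPM. The 12 cardiomyocyte markers summed to 38467 CPM in sham JV101 replicate 1 at the lowest and to 68990 CPM in sham JV101 replicate 3 at the highest, the reverse of the fibroblast order in that group, and 3 of 12 were higher in NX saline than in sham saline (median -0.09).

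Other marker lists moved further in some comparisons, again with 0 genes passing. Activated fibroblast markers were higher for 6 of 7 tested genes in NX saline against sham saline (median 0.93), and their sum was 98.5 to 105 CPM in NX saline and 57.2 to 93.2 CPM in sham saline. Neutrophil markers were low, with sums of 3.99 to 10.2 CPM in NX JV101, 9.32 to 25.1 in NX saline, 2.79 to 40.5 in sham JV101 and 5.01 to 6.17 CPM in sham saline, and their defining gene *Ly6g* was at 0 in 8 libraries. Their medians were 2.33 for NX saline against sham saline (5 of 6 tested genes higher), 2.53 for sham JV101 against sham saline (6 of 6) and -2.01 for NX JV101 against NX saline (1 of 6).

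Mesothelium markers summed to 36.5 to 45.4 CPM in NX JV101, 60.9 to 127 in NX saline, 42.3 to 59.9 in sham JV101 and 69.2 to 87.8 CPM in sham saline. In NX JV101 against NX saline all 10 were lower (median -1.20), 9 of them under an unadjusted edgeR p of 0.05, where the share of all genes was 2.39%. In NX saline against sham saline all 10 were higher (0.36). Atrial cardiomyocyte markers summed to 970 to 1608 CPM in NX JV101, 280 to 544 in NX saline, 58.1 to 1259 in sham JV101 and 46.4 to 2080 CPM in sham saline. All 7 were higher in NX JV101 than in NX saline (median 1.71), 6 without overlap, where 4.52% of all genes were higher without overlap. All 7 were lower in NX saline than in sham saline (-1.48). Platelet markers had 3 tested genes, at a median of 0.39 for NX saline against sham saline and -1.18 for NX JV101 against NX saline. The part of these lists in the members' values was not tested.

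Around the ligands, 0 of 96 tested pathway genes passed in any comparison, with 69 higher in NX saline than in sham saline (median 0.22 beside 0.02 over all genes). Of the receptors, 4 of 5 were higher. *Eng*, endoglin, an auxiliary receptor of endothelium, averaged 258 ± 136 CPM in NX saline and 153 ± 20.5 CPM in sham saline (log2 fold change 0.75, SE 0.51). *Tgfbr2*, the receptor that binds the ligand first, averaged 54.1 ± 8.09 and 43.4 ± 4.57 CPM in the same groups (0.32, SE 0.27), *Acvrl1*, an endothelial type I receptor, 38.5 ± 18.3 and 28.5 ± 2.31 CPM (0.43, SE 0.52) and *Tgfbr1*, the main type I partner of *Tgfbr2*, 12.8 ± 2.67 and 13.5 ± 4.03 CPM (-0.08, SE 0.24). The 13 genes of latent complexes and activators split into 6 higher and 7 lower, with *Itgb8*, an integrin subunit that frees latent TGF-beta, at 1.35 ± 0.684 CPM in NX saline and 0.660 ± 0.180 CPM in sham saline, and *Ltbp1*, a latent TGF-beta binding protein, at 30.0 ± 6.501 and 37.2 ± 5.09 CPM. *Ltbp2*, a family member that binds fibrillin, averaged 3.66 ± 0.730 CPM in NX saline and 1.79 ± 1.18 CPM in sham saline (1.01, SE 0.54), and its value for nephrectomy averaged over saline and JV101 was 1.04 (SE 0.38, adjusted p = 0.860). *Ltbp4*, another latent TGF-beta binding protein, averaged 391 ± 142 and 257 ± 7.20 CPM in NX saline and sham saline (0.60, SE 0.38).

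Of 13 SMAD genes and regulators, 7 were higher and 6 lower. *Smad6*, an inhibitory SMAD that acts mainly on BMP signals, averaged 21.9 ± 7.99 CPM in NX saline and 12.1 ± 1.94 CPM in sham saline (log2 fold change 0.85, SE 0.33, adjusted p = 0.994). *Smad3*, a carrier of the TGF-beta signal, averaged 10.1 ± 2.499 and 11.7 ± 1.64 CPM in these groups (-0.21, SE 0.18), and *Smad7*, its feedback inhibitor, 19.7 ± 8.66 and 15.4 ± 4.60 CPM (0.36, SE 0.40). *Skil*, a repressor of SMAD activity, averaged 20.5 ± 6.18 and 17.9 ± 5.21 CPM (0.20, SE 0.32). Of 16 tested genes that TGF-beta is known to induce, 14 were higher in NX saline. One that was not is *Ccn2*, connective tissue growth factor, which averaged 70.0 ± 25.9 CPM in NX saline and 131 ± 35.8 CPM in sham saline (-0.91, SE 0.36, adjusted p = 0.994). In sham JV101 *Ccn2* averaged 68.8 ± 20.5 CPM and in NX JV101 110 ± 41.6 CPM. *Tgfb1i1*, Hic-5, a focal adhesion protein induced by TGF-beta, averaged 12.5 ± 4.69 CPM in NX saline and 8.54 ± 0.253 CPM in sham saline (0.55, SE 0.44). *Comp*, a matrix protein of the thrombospondin family that also stands among the activated fibroblast markers, averaged 2.26 ± 1.18 and 1.17 ± 0.0945 CPM in these groups (0.93, SE 0.58).

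Beside *Mmp2* and *Timp1*, 15 of 18 other proteinases and inhibitors of the MMP, ADAM and ADAMTS families were higher in NX saline, with a median of 0.66. *Adam12*, a membrane metalloproteinase of mesenchymal cells, averaged 1.20 ± 0.465 CPM in NX saline and 0.367 ± 0.212 CPM in sham saline (log2 fold change 1.75, SE 0.58, adjusted p = 0.994). *Adamts5*, an aggrecanase that cleaves versican, averaged 25.3 ± 5.48 and 10.4 ± 2.99 CPM in these groups (1.28, SE 0.49, adjusted p = 0.994), and *Reck*, a membrane-anchored inhibitor, 5.48 ± 1.94 and 3.20 ± 0.194 CPM (0.77, SE 0.44). *Mmp8*, a collagenase of neutrophils, was sparse, at 0 to 0.697 CPM in NX saline and 0.0256 to 0.115 CPM in sham saline. In NX JV101 against NX saline the same 18 genes gave 5 higher and 13 lower, with a median of -0.08 and 0 passing.

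Beside *Lox*, 8 of 14 tested enzymes of crosslinking and collagen processing were higher in NX saline. *P4ha1*, a subunit of collagen prolyl 4-hydroxylase, averaged 48.2 ± 7.50 CPM in NX saline and 88.4 ± 43.2 CPM in sham saline (log2 fold change -0.87, SE 0.40), and *P4ha2*, its isoform, 29.4 ± 2.81 and 41.3 ± 6.27 CPM (-0.49, SE 0.23). *Bmp1*, the procollagen C-proteinase, averaged 24.6 ± 2.22 and 19.6 ± 3.40 CPM in these groups (0.33, SE 0.19), and *Loxl4*, a relative of *Lox*, 1.09 ± 0.149 and 0.630 ± 0.505 CPM (0.85, SE 0.50). Of 25 tested matricellular and microfibril genes beside *Postn*, *Sparc* and *Fbn1*, 20 were higher, with a median of 0.30. *Tnxb*, tenascin-X, averaged 128 ± 33.2 CPM in NX saline and 75.8 ± 22.3 CPM in sham saline (0.76, SE 0.41), *Ccn3* 4.71 ± 1.63 and 2.48 ± 1.21 CPM (0.94, SE 0.53) and *Ccn5* 3.06 ± 0.598 and 1.48 ± 0.802 CPM (1.01, SE 0.62), the last 2 being relatives of *Ccn2*. None of these passed, and the fibroblast markers were higher in the same comparison, as given above.

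For each member the genes with the most similar pattern were named by Pearson's r of log2 CPM over the 12 libraries, as a description. *Sparc* was most like *C1qtnf1* (0.998), *Mmp2* like *Gsn* (0.996), *Postn* like *Mxra8* (0.990) and *Fbn1* like *Dab2* (0.988). The ligands were most like *Sfxn1* for *Tgfb1* (0.979), *Maml2* for *Tgfb3* (0.976) and *Ssb* for *Tgfb2* (0.905). *Lox* was most like *Carmil1* (0.977), *Timp1* like *Cstb* (0.971) and *Fn1* like *Dhx15* (0.959). Libraries share their depth and cell makeup across genes, and with 14412 genes to choose from such values are high for many genes.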

How the data were processed

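PolyA RNA of isolated cardiomyocytes was measured in 12 libraries, in 4 groups of 3. Per the submitters' processing notes, fastp, HISAT2 and HTSeq were used with GRCm39; no source used here gives their versions, the annotation or the strand setting, so reads of overlapping or antisense genes cannot be told apart. Per the labels' protocols, libraries were made from 1.3 ug of RNA. The authors deposited gene counts (22794 genes) and FPKM; 0 per-sample columns were left unused. Counts were tested with edgeR 4.0.16 (quasi-likelihood, 2-sided) in R 4.3.3, in 1 fit of all libraries with TMM scaling, filterByExpr (minimum count 10, minimum total count 15) and Benjamini-Hochberg adjustment over all 14412 genes tested. The deposited FPKM gave levels per length and, as log2(FPKM + 1) and log2(FPKM + 0.1), an alternative test with limma 3.58.1. DESeq2 1.42.0, other scalings and filters, and leaving out each library were the further alternatives.

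The members and gene lists were chosen with earlier results of these data known. All 10 members are named, and of each pathway list the up to 4 genes with the smallest edgeR p in NX saline against sham saline; *Mmp8*, too sparse, is given without a fold change. The scripts were tested on simulated data. No 2 libraries of a group agreed within sampling noise.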

Additional observations from a re-analysis of the deposited data

How the results depend on the processing

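No member passed under any of the 9 other settings or with any library left out, where a fit on only the groups compared covers the 4 comparisons of pairs. The smallest adjusted p of any member was 0.758 among those settings, for NX saline against sham saline fitted on these groups alone, and 0.197 with a library left out, for nephrectomy averaged over saline and JV101. Of the 10 genes, *Timp1* and *Lox*, with as few as 13 and 17 counts in a library, had the largest standard errors. With a library left out, the direction was kept in 55 values and turned in 5 for NX saline against sham saline, kept in 49 and turned in 11 both for NX JV101 against NX saline and for NX JV101 against sham JV101, and kept in 46 and turned in 14 for sham JV101 against sham saline. The same counts were 114 and 6 for nephrectomy averaged and 96 and 24 for the interaction. Values that turned their sign were as follows, all log2 fold changes, and the cause was not tested. With DESeq2, *Tgfb3* was at -0.0059 for sham JV101 against sham saline and *Fn1* at -0.015 for nephrectomy averaged, and with RLE size factors they were at -0.0058 and -0.014. Without the mitochondrially encoded genes *Fn1* was at -0.016 for nephrectomy averaged. With the filter of 5 CPM in 3 libraries, which removed *Timp1*, *Tgfb2* was at 0.026 for NX saline against sham saline. The replicate block put *Fn1* at 0.082 for NX saline against sham saline, -0.010 for NX JV101 against sham JV101 and -0.092 for the interaction, and no member passed with it. Correlations of deviations between same-numbered libraries ran from -0.50 to 0.25. These cannot show whether samples were handled in pairs or blocks, and the labels do not say.

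On the FPKM scale, which is not corrected for library composition, the median of all genes shifted by 0.20 with log2(FPKM + 1) and 0.31 with log2(FPKM + 0.1) for NX JV101 against NX saline, by 0.10 and 0.18 for NX JV101 against sham JV101 and by 0.16 and 0.24 for the interaction. With limma on these 2 scales, in that order, *Fn1* was at 0.045 and 0.052 for NX saline against sham saline. For NX JV101 against NX saline *Fn1* was at 0.069 and 0.071, *Fbn1* at 0.13 and 0.14, *Sparc* at 0.248 and 0.250 and *Lox* at 0.14 and 0.25, of which only *Sparc* with log2(FPKM + 1) exceeded the median of all genes. For the interaction *Tgfb1* was at 0.12 and 0.13 and *Lox* at 0.086 and 0.31. With log2(FPKM + 0.1), *Tgfb2* was at 0.022 and *Lox* at -0.063 for sham JV101 against sham saline.

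With single libraries left out, *Tgfb2* ranged from -0.13 to 0.21 and *Fn1* from -0.35 to 0.45 for NX saline against sham saline. For NX JV101 against NX saline *Tgfb1* ranged from -0.23 to 0.33, *Fbn1* from -0.47 to 0.13, *Sparc* from -0.53 to 0.16 and *Lox* from -0.56 to 0.26. For sham JV101 against sham saline *Tgfb1* ranged from -0.22 to 0.63, *Tgfb2* from -0.22 to 0.13, *Tgfb3* from -0.41 to 0.30, *Postn* from -0.52 to 0.83, *Fn1* from -0.63 to 0.16, *Sparc* from -0.27 to 0.88, *Timp1* from -0.41 to 1.11, *Lox* from -0.31 to 0.60 and *Mmp2* from -0.35 to 0.77. For NX JV101 against sham JV101 *Tgfb1* ranged from -0.017 to 0.84, *Fn1* from -0.33 to 0.31, *Fbn1* from -0.20 to 0.90, *Sparc* from -0.21 to 0.98, *Lox* from -0.17 to 0.75 and *Mmp2* from -0.016 to 1.12. *Fn1* ranged from -0.18 to 0.23 for nephrectomy averaged. For the interaction *Tgfb1* ranged from -0.60 to 0.26, *Postn* from -0.33 to 1.03, *Fn1* from -0.43 to 0.37, *Sparc* from -0.997 to 0.18, *Timp1* from -0.22 to 1.31, *Lox* from -0.65 to 0.27 and *Mmp2* from -0.30 to 0.84.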
